A study of Homo sapiens with 4 samples.

Results

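The genes described here are the plasma membrane and lysosomal amino acid transporters of 6 solute carrier families, chosen by name alone: every gene symbol of the SLC1, SLC3, SLC7, SLC36, SLC38 and SLC43 families that had a row in all 4 deposited files. The rule took 40 of 26255 genes and used no measured value. Their messenger RNA was measured by sequencing of polyadenylated RNA in MRC5, an established human cell line of fetal lung fibroblasts labelled as normal and wild type. Libraries 1 and 2 of the control group carry the treatment label "no", and libraries 1 and 2 of the miRs group carry the label "miRs", for microRNAs that the labels do not name. All 4 have 48 h in their titles. The series title speaks of a negative-control microRNA, so whether the control cells received one is not clear from the labels. The labels do not tell whether the libraries of a group are separate cultures. The p-values therefore reflect only how far these libraries spread, which may be technical.

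Amino acids cross membranes through carriers with different jobs. Some take up substrate against its gradient with sodium or protons, and others exchange an internal amino acid for an external one. SLC3A2 is a heavy chain that brings a set of SLC7 light chains to the cell surface. Its complex with SLC7A5 takes up leucine and other large neutral amino acids, and its complex with SLC7A11 imports cystine in exchange for glutamate and so feeds glutathione synthesis. Many of these genes are known targets of ATF4, the transcription factor that cells make more of when amino acids run short or proteins misfold.

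Values are FPKM, that is, fragments per kilobase of transcript scaled to library size, so levels can be set side by side between genes. The 4 libraries had 11622 to 11781 genes at 1 FPKM or more. Absolute depth is unknown. From the steps between low values, 1 fragment was worth 0.899 to 1.05 times as much as in control replicate 1. The fibroblast genes COL1A1, COL1A2 and VIM were at 1240 FPKM or more in every library, and the summed level of 12 fibroblast markers ran from 8380 to 13028 FPKM. The fibroblast list was nonetheless mostly lower in miRs, with a median log2 difference of −0.62. Of its 12 genes, 6 lay below both controls (50%, against 30.0% of all tested genes) and 1 above (8.33%, against 29.5%). In limma 0 passed an adjusted p of 0.05, and 7 had an unadjusted p under 0.05, where 24.2% of all tested genes did. The ratio of control to miRs means was 3.27 for FAP, 2.84 for DCN, 2.50 for LUM and 2.04 for THY1. Not all went this way: S100A4 lay above both controls, with a miRs mean 2.04 times the control mean. The miRs means of COL1A1 and COL3A1 were 1.37 and 1.36 times the control means, with overlapping groups. By library, the list median was −0.71 (log2) in miRs replicate 1 and −0.31 in miRs replicate 2. Among 12 epithelial markers, CDH1 reached 0.0356 FPKM in 1 control library and was listed at 0 in the others, and 5 were at 0 in all libraries. The 5 tested ones all lay above both controls in both miRs libraries (29.5% of all tested genes did). Of these, KRT18 and KRT19 passed, each with an adjusted p of 0.0354 in limma. The summed epithelial level was 29.9 and 32.1 FPKM in the control pair, against 198 and 267 FPKM in the miRs pair, with keratins making up most of it. The part of the fibroblast and epithelial differences in the results for the transporters was not tested. The defining markers endothelial PECAM1, leukocyte PTPRC and neuronal RBFOX3 reached 0.0182 FPKM at most. The summed levels were 7.46 to 18.2 FPKM for 8 endothelial markers, mostly TEK, 42.1 to 131 FPKM for 8 blood markers, nearly all CD68, and 77.9 to 192 FPKM for 9 neural markers, nearly all TUBB3. Endothelial ESAM was at 0.296 and 0.310 FPKM in the control pair, against 3.68 and 1.62 FPKM in the miRs pair. In bulk RNA, fewer cells of a type and less RNA per cell cannot be told apart.

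The miRs libraries differed from each other in ways that touch every result here. The interferon response genes, 26 on a list, lay a median of 6.24 (log2) above the control mean in miRs replicate 1, with 3.80 for miRs replicate 2. The known targets of ATF4, 24 tested, went the other way round, with a median of −0.01 in the first miRs library and 0.99 in the other. Results are therefore given for each library as well as for the groups.

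Of the 40 transporters, 24 averaged 1 FPKM or more across the libraries and entered the test, limma on log2(FPKM + 1) over all 11860 such genes. None passed an adjusted p of 0.05, where 0.245% of all tested genes did, and 5 had an unadjusted p under 0.05, where 24.2% of all did. Both miRs libraries lay above both controls for 9 transporters (37.5%, against 29.5% of all tested genes) and below both for 3 (12.5%, against 30.0%). For the other 12 the groups overlapped. The median difference, miRs minus control, was 0.31 (log2), against 0.00 over all tested genes. It was 0.02 without miRs replicate 2, 0.19 without control replicate 1 and 0.03 with no minimum FPKM, where 34 transporters entered.

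**Figure D1:**
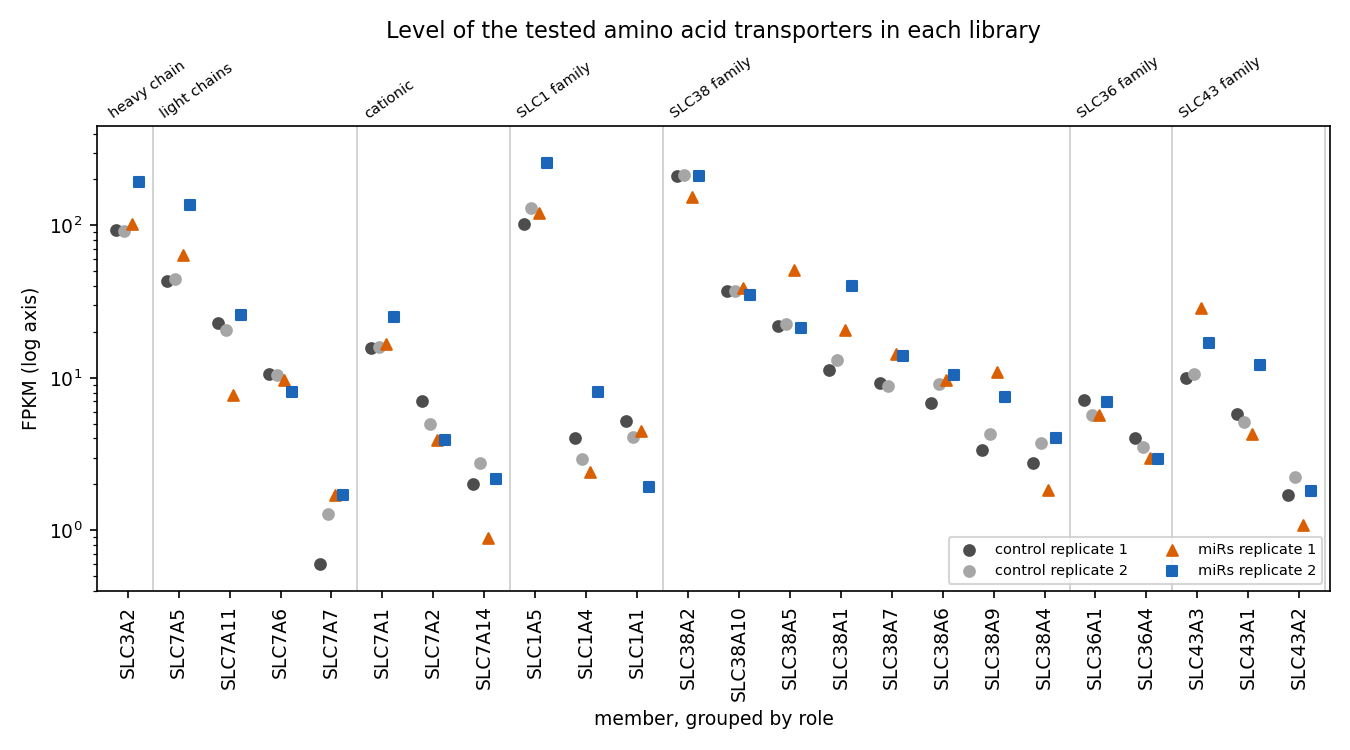
FPKM of the 24 tested transporters (log axis), 1 point per library: circles are the control libraries, triangles miRs replicate 1 and squares miRs replicate 2. SLC38A2, SLC1A5, SLC3A2 and SLC7A5 are the most abundant, and the squares of SLC3A2, SLC7A5 and SLC1A5 stand above the other 3 libraries.

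By level, the fibroblasts were dominated by a few carriers. SLC38A2, which takes up small neutral amino acids with sodium, had the highest control mean at 211 ± 2.60 FPKM (SD, n = 2). The glutamine carrier SLC1A5 followed at 116 ± 20.5 FPKM, SLC3A2 at 92.5 ± 1.63 FPKM and SLC7A5 at 43.7 ± 1.26 FPKM. These 4 genes gave 70.2% and 71.7% of the summed FPKM of all 40 transporters in the control libraries, 64.9% in miRs replicate 1 and 76.0% in miRs replicate 2. That sum was 638 and 669 FPKM in control, 679 FPKM in miRs replicate 1 and 1044 FPKM in miRs replicate 2. Of these 4 genes, SLC1A5, SLC3A2 and SLC7A5 stood above the other libraries in miRs replicate 2, at 255, 192 and 136 FPKM. SLC38A2 did not, at 210 FPKM against 209 and 213 FPKM in control.

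The other 16 transporters were under the minimum. Of these 16 symbols, 6 were listed at 0 in all libraries: SLC1A6, SLC36A2, SLC36A3, SLC38A8, SLC7A9 and SLC7A13. The remaining 10 peaked between 0.0398 FPKM (SLC3A1, the heavy chain of kidney and intestine) and 0.429 FPKM (SLC1A3, a glutamate transporter of glia). SLC1A3 was at 0.0226 and 0.0475 FPKM in the control pair, against 0.429 and 0.337 FPKM in the miRs pair, so its groups did not overlap, at levels too low for the test. SLC1A2, SLC1A7, SLC38A3, SLC38A11, SLC7A3, SLC7A4, SLC7A8 and SLC7A10 lay in between.

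The heavy chain SLC3A2 stood at 93.7 and 91.4 FPKM in the control pair, against 102 FPKM in miRs replicate 1 and 192 FPKM in miRs replicate 2. Both miRs libraries were above the controls, but the first by little. The log2 difference was 0.59 ± 0.32 (SE), with a 95% interval from −0.25 to 1.44 and an adjusted p of 0.325 in limma. Without miRs replicate 1 it was 1.04 and passed (adjusted p = 0.00496), and without miRs replicate 2 it was 0.14 (adjusted p = 0.278). Over all alternatives tried, its adjusted p ran from 0.00496 to 0.792.

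Among the light chains, SLC7A5 was at 42.8 and 44.6 FPKM in the control pair, against 64.1 and 136 FPKM in the miRs pair. All of the miRs values exceeded the controls, and miRs replicate 2 was 2.12-fold above miRs replicate 1. The log2 difference was 1.08 ± 0.37 (95% interval 0.09 to 2.06; adjusted p = 0.185 in limma), a 2.29-fold ratio of means. Dropping miRs replicate 1 gave 1.61 (adjusted p = 0.00197), and dropping miRs replicate 2 gave 0.54 (adjusted p = 0.0211). SLC7A5 has near-identical partial copies, SLC7A5P1 and SLC7A5P2, whose own rows reached at most 1.43 FPKM, so its level is uncertain to the extent that reads were split with them.

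SLC7A11, the cystine importer, was at 22.9 and 20.7 FPKM in the control pair, against 7.66 and 25.8 FPKM in the miRs pair. The miRs libraries stood on opposite sides of the controls, 3.37-fold apart, the widest gap of the 24 transporters. The log2 difference of −0.58 ± 0.55 had a 95% interval from −2.04 to 0.88 (adjusted p = 0.555 in limma). Without miRs replicate 2 it was −1.39 and passed (adjusted p = 0.00541), and without miRs replicate 1 it was 0.23 (adjusted p = 0.224). The antisense gene SLC7A11-AS1 was at 0.184 FPKM or less.

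SLC7A6, which exchanges basic for neutral amino acids, was at 10.6 and 10.4 FPKM in the control pair, against 9.73 and 8.10 FPKM in the miRs pair, so both miRs libraries lay below (log2 difference −0.22, adjusted p = 0.403). Its neighbour SLC7A6OS, which overlaps it on the opposite strand, was at 11.3 to 13.9 FPKM. The labels do not say whether the counting used strand, so the levels of this pair are uncertain. SLC7A7, a relative with the same mode of exchange, was at 0.598 and 1.27 FPKM in the control pair, against 1.69 and 1.72 FPKM in the miRs pair (log2 difference 0.50, adjusted p = 0.283).

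Set against its partners, SLC3A2 kept nearly the same proportion in every library. The summed FPKM of its 6 light chains, SLC7A5, SLC7A6, SLC7A7, SLC7A8, SLC7A10 and SLC7A11, was 77.1 and 77.1 in control, 83.3 in the first miRs library and 172 in the other. The ratio of SLC3A2 to that sum was 1.21 and 1.19 in control and 1.23 and 1.12 in miRs. The make-up of the sum differed. The share of SLC7A11 was 29.6% and 26.9% in control and 9.19% and 15.0% in miRs, and that of SLC7A5 was 55.5% and 57.9% in control and 76.9% and 79.1% in miRs. SLC7A5 was therefore 1.87 and 2.15 times the level of SLC7A11 in control, and 8.37 and 5.27 times in miRs. The groups did not overlap in either share, and the smallest 2-sided p that an exact permutation test can give for 2 against 2 libraries is 0.333. These ratios were formed after the values of the genes had been seen.

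**Figure D2:**
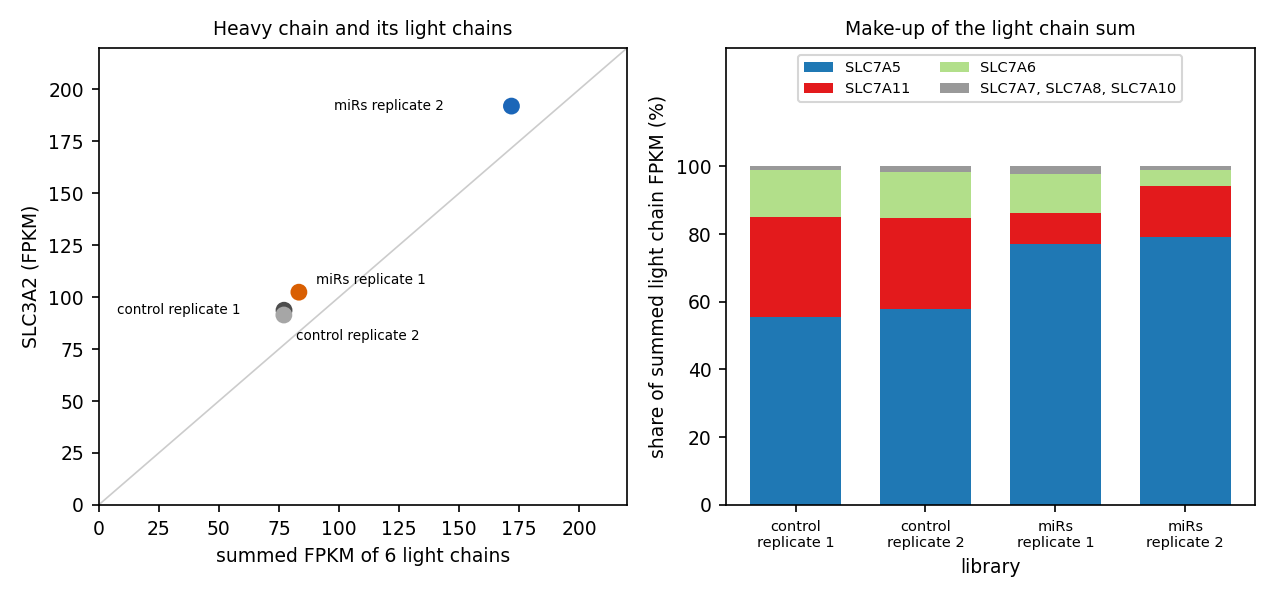
Left, SLC3A2 against the summed FPKM of 6 light chains, 1 point per library, with the line of equal values. Right, percent of that sum held by each light chain. In the left panel miRs replicate 2 lies at 192 FPKM of SLC3A2 and the other 3 libraries between 91.4 and 102, and in the right panel the SLC7A11 share is smaller in both miRs libraries.

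The genes grouped here as cationic carriers, of which SLC7A1 and SLC7A2 take up arginine and lysine, showed no common direction. SLC7A1, the common form, was at 15.8 FPKM in both controls, against 16.7 and 25.2 FPKM in the miRs pair (log2 difference 0.36 ± 0.22, adjusted p = 0.382 in limma). SLC7A2, the second arginine carrier, was at 7.08 and 4.95 FPKM in the control pair, against 3.93 and 3.92 FPKM in the miRs pair. Its miRs values were alike and below both controls (log2 difference −0.49 ± 0.20, 95% interval −1.01 to 0.02, adjusted p = 0.221), and it did not pass without either miRs library (adjusted p = 0.171 and 0.153). SLC7A14 was at 2.03 and 2.78 FPKM in the control pair, against 0.885 and 2.17 FPKM in the miRs pair, with overlapping groups.

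In the SLC1 family, SLC1A5, which exchanges neutral amino acids such as glutamine with sodium, was at 102 and 131 FPKM in the control pair, against 121 and 255 FPKM in the miRs pair. The miRs replicate 1 value fell between the controls, and miRs replicate 2 stood above all other libraries (log2 difference 0.60 ± 0.39, adjusted p = 0.395 in limma). SLC1A4, a carrier of alanine, serine and cysteine, was at 4.01 and 2.92 FPKM in the control pair, against 2.40 and 8.02 FPKM in the miRs pair, below and above both controls. SLC1A1, a glutamate and cysteine carrier, had the opposite order, at 5.18 and 4.10 FPKM in the control pair, against 4.51 and 1.93 FPKM in the miRs pair. None of these 3 genes kept its groups apart.

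In the sodium-coupled SLC38 family, 8 of 11 genes were tested and 4 (50%) lay higher in both miRs libraries, against 29.5% of all tested genes. SLC38A1, a glutamine carrier of the cell surface, was at 11.3 and 13.0 FPKM in the control pair, against 20.6 and 39.7 FPKM in the miRs pair. The log2 difference was 1.18 ± 0.33 (95% interval 0.31 to 2.05, adjusted p = 0.138 in limma), a 2.48-fold ratio of means and the largest positive difference of the 24. In the human genome SLC38A1, SLC38A2 and SLC38A4 follow one another on chromosome 12, with 0 protein-coding genes between them in the GRCh38.p14 annotation. Its neighbours did not show its pattern: SLC38A2 was at 209 and 213 FPKM in the control pair, against 153 and 210.2 FPKM in the miRs pair, and SLC38A4 at 2.75 and 3.72 FPKM in the control pair, against 1.85 and 4.04 FPKM in the miRs pair.

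The lysosomal members of the family were higher in both miRs libraries, SLC38A9 by more than SLC38A7. SLC38A9, which senses arginine at the lysosome for the growth kinase complex mTORC1, was at 3.36 and 4.25 FPKM in the control pair, against 10.9 and 7.43 FPKM in the miRs pair (log2 difference 1.06 ± 0.23, 95% interval 0.47 to 1.66, adjusted p = 0.0968 in limma). SLC38A7, which exports glutamine from lysosomes, was at 9.24 and 8.78 FPKM in the control pair, against 14.3 and 13.96 FPKM in the miRs pair. Its libraries were close within each group, and its difference of 0.60 ± 0.12 (95% interval 0.27 to 0.92) had the smallest adjusted p of the 24, 0.0950.

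SLC38A5, a glutamine carrier that works with sodium and protons, was high in a single library, at 50.9 FPKM in miRs replicate 1 against 21.3 FPKM in miRs replicate 2 and 21.97 and 22.5 FPKM in the control pair. SLC38A10 was nearly level at 37.0 FPKM in both controls, against 38.9 and 34.97 FPKM in the miRs pair, with a 95% interval of the log2 difference from −0.34 to 0.33. SLC38A6 was at 6.87 and 9.10 FPKM in the control pair, against 9.73 and 10.4 FPKM in the miRs pair (log2 difference 0.31, adjusted p = 0.340 in limma).

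The proton-coupled and SLC43 carriers were less abundant. SLC36A1, which exports amino acids from lysosomes, was at 7.14 and 5.67 FPKM in the control pair, against 5.70 and 6.98 FPKM in the miRs pair. SLC36A4, a proline and tryptophan carrier, was lower in both miRs libraries, at 4.03 and 3.54 against 2.98 and 2.92 FPKM (log2 difference −0.27 ± 0.15, adjusted p = 0.329 in limma). SLC43A1, a carrier of large neutral amino acids that needs no ion gradient, was at 5.76 and 5.13 FPKM in the control pair, against 4.27 and 12.0 FPKM in the miRs pair, on both sides of the controls. Its relative SLC43A2 was at 1.69 and 2.23 FPKM in the control pair, against 1.09 and 1.81 FPKM in the miRs pair.

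SLC43A3, which is known for carrying purine nucleobases and so shares the family name more than the substrate, was at 10.04 and 10.6 FPKM in the control pair, against 28.5 and 17.0 FPKM in the miRs pair. Both miRs libraries were well above the controls, with a log2 difference of 1.03 ± 0.26 (95% interval 0.33 to 1.73, adjusted p = 0.123 in limma) and a 2.21-fold ratio of means.

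**Figure D3:**
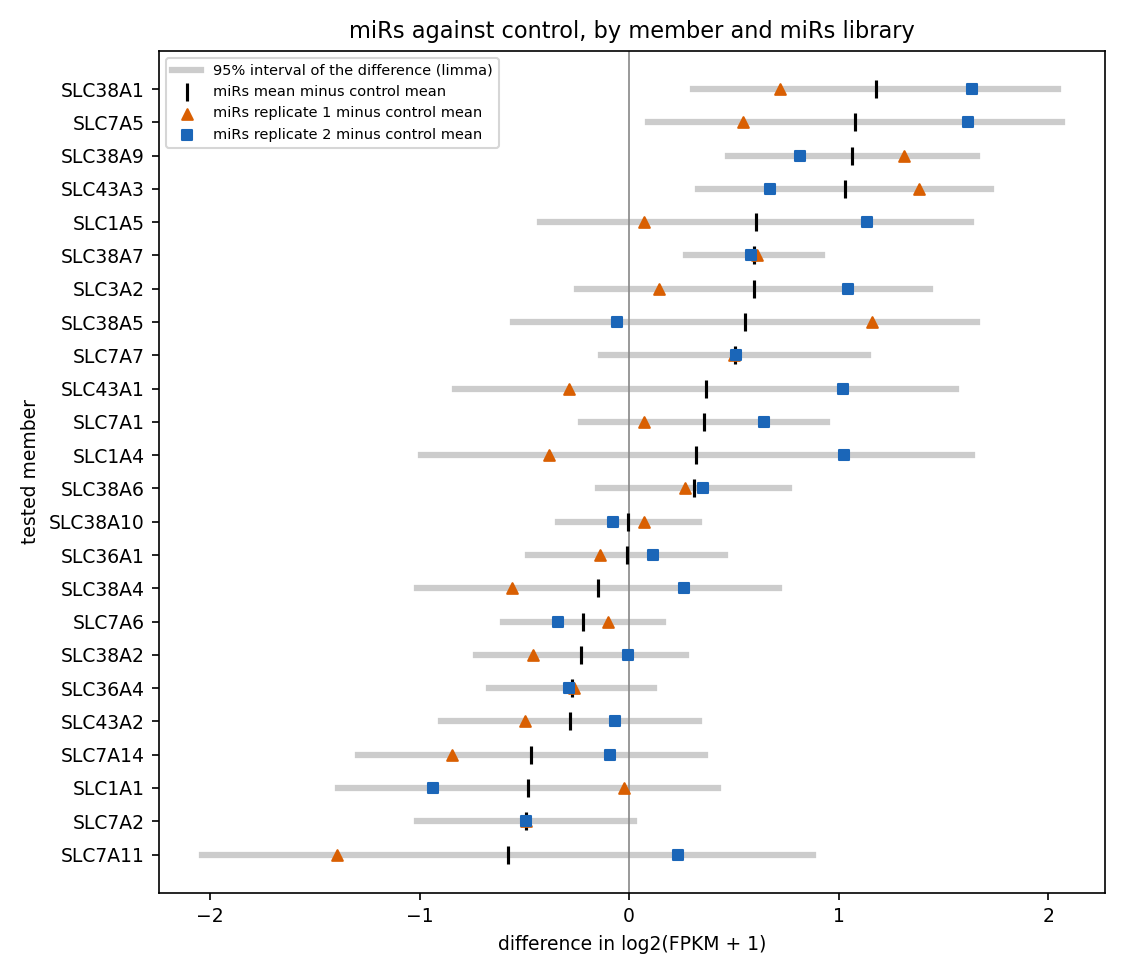
Difference from the control mean in log2(FPKM + 1) for the 24 tested transporters, with triangles for miRs replicate 1, squares for miRs replicate 2, ticks for the group difference and grey bars for its 95% interval in limma. SLC38A1, SLC7A5, SLC38A9, SLC43A3 and SLC38A7 have intervals above 0, and the intervals are not adjusted for the number of genes tested. For SLC7A11, SLC1A4, SLC43A1, SLC38A4, SLC38A5, SLC36A1 and SLC38A10 the miRs libraries lie on opposite sides of 0.

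Leaving out either miRs library raised the number of calls, as the spread then came from the controls and the lone miRs library was assumed to vary like them. Without miRs replicate 1, 11 transporters passed in limma, 10 higher and 1 lower (18.6% of all tested genes passed). Without miRs replicate 2, 9 passed, 6 higher and 3 lower (33.1% of all passed). SLC38A1, SLC38A7, SLC38A9, SLC43A3 and SLC7A5 passed in both of these fits. Leaving out control replicate 1 or control replicate 2 did not raise the number of calls, among the transporters or over all genes. The median log2 difference of the transporters was then 0.19 and 0.22.

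The transporters differed between the miRs libraries more often than genes at large. In 9 of 24 (37.5%) these libraries were at least 2-fold apart, against 9.40% of all tested genes, while in the control pair 1 of 24 was, SLC7A7, against 1.89% of all. The 9 were SLC7A11, SLC1A4, SLC43A1, SLC7A14, SLC38A4, SLC7A5 and SLC1A5, higher in miRs replicate 2, and SLC38A5 and SLC1A1, higher in miRs replicate 1. Among the related lists given below, the share 2-fold apart was 62.5% for targets of ATF4 and 40% for other amino acid transporters. In the remaining lists it was 0% to 25%. miRs replicate 2 was the highest of the 4 libraries for 11 of 24 transporters (45.8%), against 23.7% of all tested genes. That share was higher for targets of ATF4 (79.2%), mTORC1 sensing (58.3%), aminoacyl-tRNA synthetases (55%) and amino acid metabolism (50%). It was lower for other amino acid transporters (40%), eIF2 kinases and ATF4 (33.3%), the glutathione list (16.7%) and mitochondrial carriers (14.3%). Levels of ATF4 itself were 223 and 254 FPKM in the control pair, against 279 and 402 FPKM in the miRs pair. Its part in the differences between transporters was not tested.

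The promoters of the transporters were searched for the amino acid response motif TGATGNAA, to which ATF4 binds with C/EBP proteins, on both strands of 250 bases before to 50 after each start. RefSeq promoters (GRCh38.p14) were at hand for 31 of the 40 transporters, 21 of them tested. The motif stood in a promoter of 6 of the 31 (19.4%), and in 6 of their 53 listed promoters (11.3%) against 3.62% of all 35116 promoters. For the ATF4 target list it stood in 5 of 21 genes with a promoter (23.8%), and for the interferon response list in 2 of 18 (11.1%). Among all genes with a promoter the share was 4.46%. A match is a description of letters and not of binding. The stretches around the motif are shown on the gene's strand, 5′ to 3′, with the motif in capitals, lying on the opposite strand in SLC1A4 and SLC3A2. They are the 6 matches among the transporters.
SLC3A2, chr11:62881725-62881748, + strand: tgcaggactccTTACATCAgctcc
SLC1A5, chr19:46784893-46784922, − strand: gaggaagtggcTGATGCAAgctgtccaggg
SLC1A4, chr2:64989381-64989410, + strand: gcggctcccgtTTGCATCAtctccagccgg
SLC38A1, chr12:46266502-46266531, − strand: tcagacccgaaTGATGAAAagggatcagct
SLC7A1, chr13:29595663-29595692, − strand: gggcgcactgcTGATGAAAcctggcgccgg
SLC1A3, chr5:36596357-36596386, + strand: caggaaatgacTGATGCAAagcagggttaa

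The motif began 7 bases before the start of SLC1A4, 4 before that of SLC38A1, 97 before that of SLC1A5 and 220 before that of SLC1A3, and 7 bases after that of SLC7A1 and 37 after that of SLC3A2. All 5 tested genes with the motif had their highest level in miRs replicate 2. So did 5 of the 16 tested genes that had a promoter sequence without it, SLC7A5, SLC38A4, SLC38A6, SLC43A1 and SLC7A7. Over all tested genes the share was 23.7%. The motif was chosen with the expression values known.

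Other genes of amino acid handling were read from lists. Of the 24 tested targets of ATF4, 0 passed in limma and 4 had an unadjusted p under 0.05, a smaller share than the 24.2% of all tested genes. Without overlap, 9 were higher (37.5%, against 29.5% of all) and 2 lower (8.33%, against 30.0%), and the median log2 difference was 0.40. miRs replicate 2 was the highest library for 19 of the 24 (79.2%, against 23.7% of all tested genes). Asparagine synthetase ASNS was at 33.6 and 38.5 FPKM in the control pair, against 39.9 and 129 FPKM in the miRs pair. TRIB3, which feeds back on ATF4, was at 15.3 and 16.0 against 16.3 and 75.8 FPKM. These were named after their values were seen, for the same order as SLC3A2 and SLC7A5. By the naming rule, MTHFD2, of mitochondrial folate metabolism, was at 46.6 and 44.1 against 67.9 and 106 FPKM (adjusted p = 0.134). The transcription factor ATF3 was at 2.92 and 3.52 against 19.1 and 7.88 FPKM (adjusted p = 0.117), with the opposite order of the miRs libraries. The proline synthesis enzyme ALDH18A1 and the lipoprotein receptor VLDLR lay lower in miRs, with log2 differences of −0.55 and −0.78.

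Of the 6 genes of the eIF2 kinases and ATF4, 2 were higher (33.3%, against 29.5% of all tested genes) and 1 lower (16.7%, against 30.0%) without overlap. EIF2AK2, the kinase that senses double-stranded RNA and is itself induced by interferon, was at 9.12 and 9.54 FPKM in the control pair, against 42.7 and 25.5 FPKM in the miRs pair (log2 difference 1.72, adjusted p = 0.0769 in limma). EIF2AK4, the kinase that senses uncharged transfer RNA, was at 33.6 and 29.4 against 34.4 and 33.0 FPKM, and EIF2AK3, the kinase of endoplasmic reticulum stress, at 4.25 and 3.63 against 3.92 and 4.47 FPKM. EIF2AK1, the kinase that senses heme, was at 34.8 and 31.2 against 30.5 and 25.5 FPKM.

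The list of glutathione synthesis and NRF2 genes was mostly lower. Of 12 tested genes 0 passed and 4 had an unadjusted p under 0.05 in limma, 9 were lower in both miRs libraries (30.0% of all tested genes were), and the median log2 difference was −0.43, at −0.57 in miRs replicate 1 and −0.19 in miRs replicate 2. Thioredoxin reductase TXNRD1 was at 209 and 224 FPKM in the control pair, against 88.4 and 151 FPKM in the miRs pair (adjusted p = 0.158). GCLM, of the enzyme that starts glutathione synthesis, was at 9.03 and 8.83 against 6.64 and 5.70 FPKM (adjusted p = 0.147), and the glutathione synthetase GSS at 37.0 and 38.05 against 27.4 and 29.3 FPKM. CD44, a surface protein that steadies SLC7A11 at the membrane, was at 607 and 502 against 401 and 218 FPKM.

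Among amino acid carriers outside the 6 families, 5 of 19 were tested and none of these 5 overlapped, each with its miRs pair on the higher side (29.5% of all tested genes were), with a median log2 difference of 0.55. The glycine carrier SLC6A9 was at 3.50 and 6.27 FPKM in the control pair, against 11.3 and 25.6 FPKM in the miRs pair. The taurine carrier SLC6A6 was at 9.34 and 12.32 against 12.35 and 19.9 FPKM, so its miRs replicate 1 was barely above control replicate 2. The lysosomal genes PQLC2, an exporter of cationic amino acids, and MFSD12, of cysteine import into lysosomes and melanosomes, were at 8.51 and 6.78 against 12.1 and 11.2 FPKM and at 17.5 and 13.4 against 67.6 and 23.8 FPKM. None passed in limma, the smallest adjusted p being 0.134, and 2 had an unadjusted p under 0.05.

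Genes by which mTORC1 senses amino acids showed no common direction, with 8 of 24 tested higher (33.3%, against 29.5% of all tested genes) and 4 lower (16.7%, against 30.0%) without overlap and a median log2 difference of −0.02. LAMTOR5 and LAMTOR4, subunits of the lysosomal scaffold, were lower at 74.2 and 74.5 against 51.4 and 50.8 FPKM and at 85.5 and 98.4 against 55.8 and 61.3 FPKM, each with an adjusted p of 0.101 in limma. RRAGC, of the GTPases on that scaffold, was at 14.1 and 12.9 against 20.05 and 17.2 FPKM, and the leucine sensor relative SESN1 at 6.63 and 7.48 against 9.21 and 13.98 FPKM. Of this list 0 passed and 4 had an unadjusted p under 0.05, where 24.2% of all tested genes did.

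**Figure D4:**
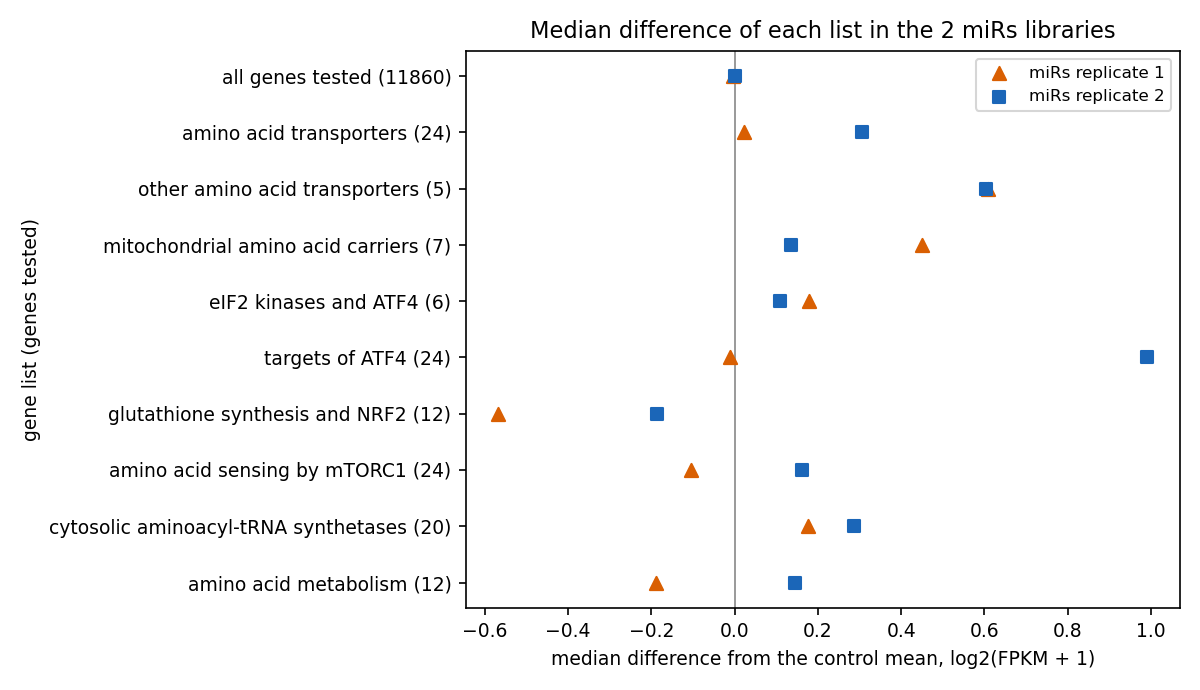
Median difference from the control mean in log2(FPKM + 1) of all tested genes, the transporters and the 8 related lists, with triangles for miRs replicate 1 and squares for miRs replicate 2, and the number of tested genes in brackets. Among the lists plotted, the targets of ATF4 have the widest gap, from −0.01 to 0.99, and the glutathione and NRF2 list lies below 0 in both.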

How the data were processed

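RNA of 4 MRC5 libraries, 2 control and 2 miRs, was analysed, with groups from the treatment label. Per the labels' protocols, RNA was column-purified and TruSeq Stranded mRNA libraries were made. The deposited FPKM values, as named per the file headers, came from the authors' processing, and the build hg19 and the tools Cuffdiff 2.2.1, TopHat2 2.1.1, SAMtools 0.1.18 and Bowtie2 2.2.8 are listed, per the submitters' processing notes, with no order. For annotation, strand setting and library scaling nothing is given in these sources. FPKM is not a count, and whole reads were not recovered, since steps depend on transcript length. Files were joined on symbol. Those averaging 1 FPKM or more were tested with limma 3.58.1 (R 4.3.3) on log2(FPKM + 1), 2-sided, with a mean-variance trend, Benjamini-Hochberg adjustment over all 11860 genes and a threshold of 0.05. This scale understates differences of low genes. The fit was tested on simulated data. The smaller tables used Python 3.11.15.

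Other settings tried were 0.1 as pseudocount, a minimum of 5 FPKM or none, median-of-ratios or quantile scaling, leaving out the variance trend, blocking on replicate number, and leaving out each library. Members and lists were chosen with earlier results of these data known. Every tested transporter is named, with full statistics for SLC7A11, SLC3A2 and those with unadjusted p under 0.05 and no overlap, and up to 4 genes of smallest p per related list. Other names were chosen after their values were seen. 1 gene that the naming rule picks is not reported here.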

Additional observations from a re-analysis of the deposited data

How the results depend on the processing

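With 2 libraries per group, limma had 2 residual degrees of freedom before moderation, and absolute depth is unknown. No transporter passed under any alternative that kept all 4 libraries. Over all genes, 29 passed, against 0 with no minimum FPKM (3338 at an unadjusted p under 0.05), 6 with quantile normalization, 99 with the replicate block, and 0 to 3906 with 1 library left out. With 1 library left out, 0 to 11 transporters passed, 10 to 14 were higher and 5 to 10 lower without overlap, their median ran from 0.0216 to 0.31, 3 to 5 of 7 role groups had a median above 0, and 0 to 47 genes of the related lists passed. Leaving out 1 library makes overlap of the groups less likely for any gene. The share of all tested genes without overlap was not taken for those fits. Their counts without overlap therefore cannot be set against a background and show nothing particular to the transporters. With all 4 libraries, transporters lower without overlap numbered 3, against 5 with no minimum and 1 with a minimum mean of 5 FPKM. The transporters' median was 0.0287 with no minimum. The replicate block, with equal numbers' deviations correlated at 0.20 across genes, called 1 gene of the related lists, SLC25A13, and no transporter; the numbers are not known to pair cultures. SLC38A10 changed sign to 0.00218 with median-of-ratios rescaling. With 1 library left out, the log2 difference changed sign for SLC7A11 (−1.39 to 0.23), SLC1A4 (−0.38 to 1.02), SLC43A1 (−0.29 to 1.02), SLC38A5 (−0.0575 to 1.16), SLC38A4 (−0.56 to 0.26), SLC36A1 (−0.156 to 0.13) and SLC38A10 (−0.0786 to 0.0721). The cause was not tested.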

Other observations

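Lists further from the membrane carriers gave these values. Of 20 cytosolic aminoacyl-tRNA synthetases, which charge transfer RNA with amino acids, 10 were higher (50%, against 29.5% of all tested genes) and 1 lower (5%, against 30.0%) in both miRs libraries without overlap, with a median log2 difference of 0.30. In limma 0 passed and 5 had an unadjusted p under 0.05, about the 24.2% of all tested genes. TARS, for threonine, was at 57.9 and 58.8 FPKM in the control pair, against 88.9 and 92.0 FPKM in the miRs pair (adjusted p = 0.0889). WARS, for tryptophan and itself induced by interferon, was at 86.7 and 98.9 against 420.5 and 177 FPKM, with the higher value in miRs replicate 1. GARS, for glycine, was at 113 and 109 against 138 and 179 FPKM, and YARS, for tyrosine, at 47.2 and 48.7 against 62.6 and 101.04 FPKM, both with the higher value in miRs replicate 2.

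Of 7 tested mitochondrial amino acid carriers, 4 were higher (57.1%, against 29.5% of all tested genes) and 1 lower (14.3%, against 30.0%) without overlap. SLC25A13, the aspartate and glutamate exchanger of the malate shuttle, was at 5.33 and 4.54 FPKM in the control pair, against 14.6 and 13.3 FPKM in the miRs pair (log2 difference 1.33, adjusted p = 0.0632 in limma), and its miRs libraries were close. SLC25A29, a carrier of basic amino acids, was at 13.4 and 15.4 against 4.85 and 8.06 FPKM (adjusted p = 0.107). SLC25A38, a glycine carrier of heme synthesis, was at 10.6 in both controls against 15.9 and 14.2 FPKM, and the ornithine carrier SLC25A15 at 2.95 and 2.96 against 3.63 and 3.95 FPKM. In limma 0 passed and 3 had an unadjusted p under 0.05, where 24.2% of all did.

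Among 12 tested enzymes of amino acid metabolism, 2 were higher (16.7%, against 29.5% of all tested genes) and 3 lower (25%, against 30.0%) without overlap, both below the background, with a median log2 difference of −0.02. Glutamine synthetase GLUL was at 13.8 and 16.4 FPKM in the control pair, against 9.23 and 7.35 FPKM in the miRs pair (adjusted p = 0.0994 in limma). ASL, of arginine synthesis, was at 21.7 and 21.8 against 11.7 and 18.5 FPKM, and the alanine transaminase GPT2 at 8.60 and 9.44 against 9.47 and 16.1 FPKM. In this list 0 passed and 2 had an unadjusted p under 0.05, where 24.2% of all did.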
